A study of Mus musculus with 6 samples.

Results

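The 44 genes described here are interferon-stimulated genes, taken by symbol from the 25403 genes listed in the count table, and all 44 were listed and had enough counts to be tested. The study asked how *Themis*, an adaptor gene best known from T cell development, shapes the response of the liver to a diet that induces metabolic dysfunction-associated steatohepatitis (MASH). Poly(A) RNA was sequenced from the livers of 3 WT mice, C57BL6/J by label, and 3 whole-body *Themis*-KO mice, whose strain is not given in the labels. All 6 mice ate the same MASH diet, in which fat gave 40% and fructose 20% of the energy, with cholesterol at 2%, for 3 months from an age of 10 to 12 weeks, so no chow-fed group stands beside them. The deletion is not restricted to a cell type, and the part of the gene that was deleted is not given in the sources used here. In bulk tissue, more cells of a type and more RNA per cell cannot be told apart.

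Interferons are secreted antiviral cytokines. Type I and type III interferons act through separate receptors (IFNAR1 with IFNAR2, and IFNLR1 with IL10RB) but signal to the same complex, with STAT2 and IRF9 among its subunits, which binds paired GAAA half-sites called interferon-stimulated response elements. Type II interferon (IFN-γ) acts through IFNGR1 and IFNGR2 and works mainly through gamma-activated sites (GAS). In the liver, hepatocytes and nonparenchymal cells express interferon-stimulated genes at rest and after infection or tissue damage.

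The libraries held 20679642 to 25649767 counts on genes. *Themis* itself had 8.07, 25.6 and 12.0 CPM (read counts scaled to the TMM-normalized library size) in WT 1, 2 and 3 and 8.63, 7.74 and 9.97 CPM in KO 1, 2 and 3, which gave a log2 fold change of −0.79 (SE 0.38) and an adjusted p of 0.199 by edgeR. These counts did not tell the 2 labels apart, and every direction given here rests on the labels. The animals are therefore named as labelled, WT 1 to 3 and KO 1 to 3, without a check of the genotype. The WT livers 1 and 2 also stood apart in a near-identical pair of mitochondrial sequences, with *Gm28438* taking 96.6% and 96.8% of its sum with *mt-Nd3* in these livers and 2.20% to 3.26% in the other 4. This split is called the mitochondrial type, and it leaves WT 3 alone to compare with the KO livers within a type.

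Over all 14496 genes tested, 4.97% had higher and 4.14% had lower levels in the livers labelled *Themis*-KO, with an adjusted p under 0.05 as the threshold in edgeR, or 9.11% in either direction. Of the 44 interferon-stimulated genes, 8 were higher (18.2%), 1 was lower (2.27%) and 35 did not pass the test. The 8 were *Irf7*, *Ifit2*, *Oas1a*, *Oas2*, *Oas3*, *Oasl2*, *Ifi44* and *Trim30a*, with rises of 1.29-fold to 2.31-fold, and the lower one was *Tap1*. DESeq2 called 8 higher and 1 lower as well, and these were the same 9 genes, but it called more of all genes, 8.02% higher and 7.12% lower. The 44 log2 fold changes ran from −0.48 to 1.21 with a median of 0.10, against a median of 0.0095 over all genes, and 26 were positive and 18 negative (34 positive when libraries were scaled to total counts without TMM). In 11 of the 44, every KO liver lay above every WT liver, and in 3 every KO liver lay below (17.7% and 16.9% of all genes tested). Of the 35 genes that were not called, 34 had a 95% interval of the log2 fold change within 1 of no difference, and the exception was *Mx1*, with an interval of 0.0025 to 1.41.

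The calls depended on single livers. With WT 1, WT 2, KO 1 or KO 2 left out, edgeR called 0 of the 44 genes, while 12, 15, 13 and 11 had an unadjusted p under 0.05, and only 8 to 27 genes higher and 12 to 57 lower were called in the whole table. Without WT 3, 6 were higher and 0 lower, while 3.24% of all genes were higher and 2.49% lower. Without KO 3, 11 of the 44 were higher (25%) and 4 lower (9.09%), while 15.05% of all genes were higher and 13.8% lower. With the mitochondrial type as a covariate 0 were called and 9 had an unadjusted p under 0.05. The 8 genes kept a positive log2 fold change there, of 0.34 to 0.88, and *Tap1* had −0.43. These signs were largely fixed beforehand, because the groups of these genes do not overlap.

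**Figure D1:**
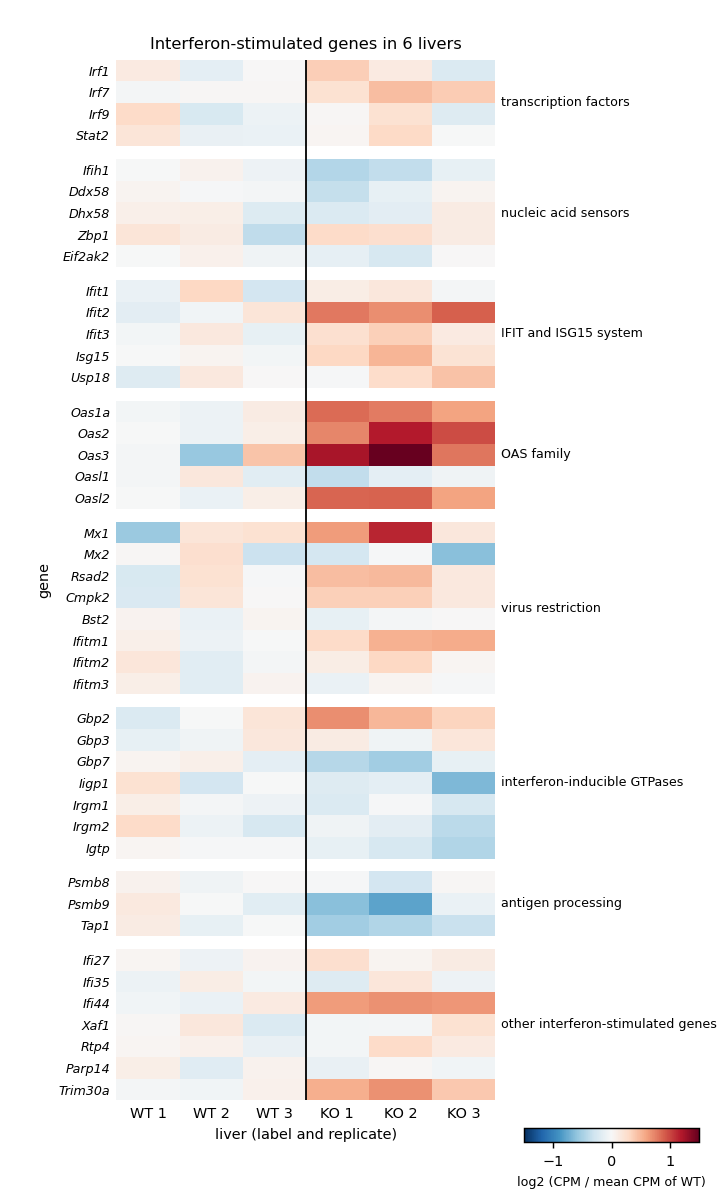
Level of each of the 44 interferon-stimulated genes (rows, by role) in each liver (columns), as the log2 ratio of its CPM to the mean CPM of the 3 WT livers, with red above and blue below that mean. *Oas1a*, *Oas2*, *Oas3* and *Oasl2* are red in all 3 KO livers and *Oasl1* is not. *Tap1* lies below the WT mean in all 3 KO livers, and *Psmb9* clearly so in KO 1 and KO 2 and only slightly in KO 3.

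The promoters of these genes were read for the letters of the response elements. RefSeq promoters (GRCm38.p6, 250 bases before to 50 after a start site) were matched for 34 of the 44 genes. They were searched on both strands for the paired half-site GAAANNGAAA, and overlapping matches were counted separately. Of the 34 genes, 20 (58.8%) held it, against 3.99% of all 27025 genes with a promoter and 3.44% of the 32851 promoters. The GAS motif TTCNNNGAA, also searched on both strands, was in 11 of the 34 (32.4%), against 9.55% of all genes and 8.30% of all promoters. The paired half-site and the GAS motif may overlap in a window, and a match is a description of letters and not of binding.

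The first 3 windows below are those of the called genes with a match before the start site, and the next 4 are those of genes that share the motif but were not called. Capitals mark a single paired half-site or its reverse complement per window, also where another match lies in it. Each window reads 5′ to 3′ on the strand of the gene.
*Oas1a*, chr5:120907526-120907565, reverse strand: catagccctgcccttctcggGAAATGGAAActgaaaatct
*Oas3*, chr5:120777705-120777754, reverse strand: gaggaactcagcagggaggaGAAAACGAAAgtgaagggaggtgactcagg
*Trim30a*, chr7:104465200-104465249, reverse strand: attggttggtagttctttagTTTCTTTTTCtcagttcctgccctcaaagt
*Isg15*, chr4:156200861-156200910, reverse strand: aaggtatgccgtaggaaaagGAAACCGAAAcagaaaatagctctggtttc
*Ifit1*, chr19:34640784-34640833, forward strand: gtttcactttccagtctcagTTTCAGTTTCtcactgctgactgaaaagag
*Irgm2*, chr11:58214893-58214942, forward strand: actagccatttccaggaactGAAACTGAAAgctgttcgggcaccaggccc
*Igtp*, chr11:58199502-58199551, forward strand: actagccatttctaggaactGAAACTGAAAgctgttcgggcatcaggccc

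The windows of *Irgm2* and *Igtp*, neighbouring GTPase genes, differed at 2 of 50 bases. In *Isg15* 3 matches of the motif overlapped, as did 2 in *Oas1a*, and in *Ifit1* 2 stood apart before the start site. Genes with and without the motif were among those called. Of the 9 called genes, 8 had a promoter entry and 3 of these held it (37.5%), against 17 of the 26 uncalled genes with an entry (65.4%). The median log2 fold change was 0.086 in the genes with the motif and 0.086 in those without. *Ifit2*, *Oasl2*, *Ifi44*, *Irf7* and *Tap1* had an entry without these letters in its 300 bases.

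**Figure D2:**
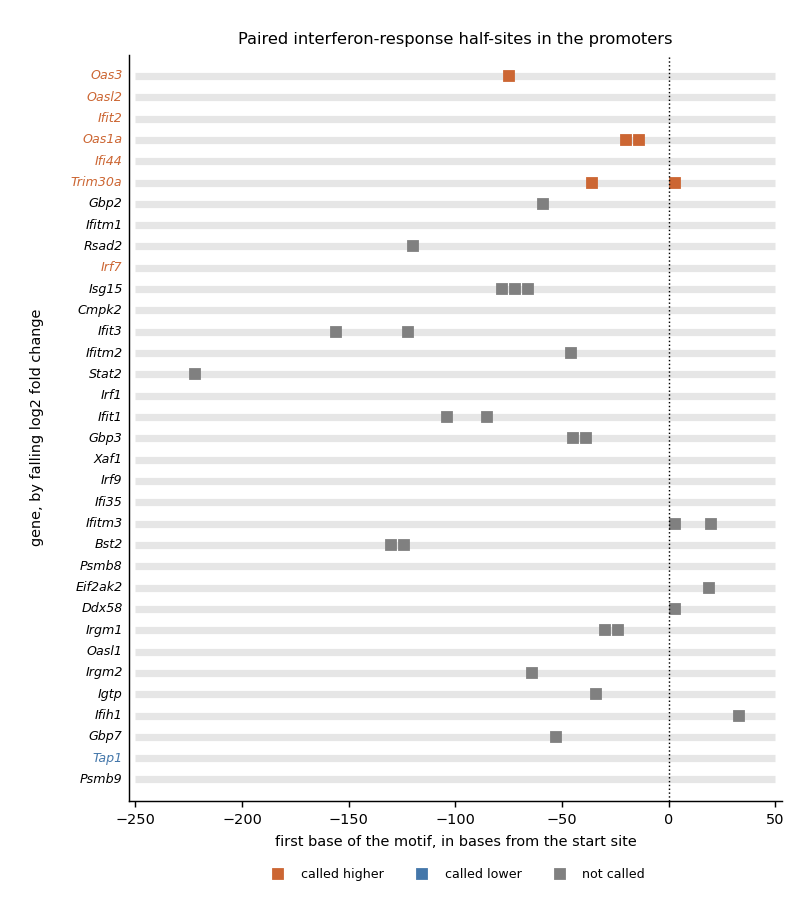
Position of each paired half-site (squares) in the promoters of the 34 genes with a RefSeq entry, in bases from the start site, with genes ordered from the highest to the lowest log2 fold change. Orange marks genes called higher, blue names the gene called lower and grey squares mark genes that were not called; squares are found from the top to the bottom of the order.

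Among the transcription factors, *Irf7*, which amplifies type I interferon production, was called. *Irf7* (chr7:141262706-141266481, reverse strand) had 39.95, 41.3 and 41.5 CPM in WT 1 to 3 and 48.0, 56.3 and 53.5 CPM in KO 1 to 3, or 1.29-fold more (log2 0.36, SE 0.086, adjusted p = 0.0426). All 3 KO livers lay above all WT livers, and this was the smallest of the 8 rises. *Stat2*, a subunit of the complex that binds the response element, had 92.4, 75.1 and 75.3 CPM in the WT livers and 82.8, 99.5 and 80.5 CPM in the KO livers (0.11, SE 0.12, adjusted p = 0.551), and the groups overlapped. *Irf9*, another subunit, and *Irf1* did not pass the test either (0.03 and 0.11).

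None of the 5 nucleic acid sensors was called by edgeR or DESeq2, and 1 had an unadjusted p under 0.05. It was *Ifih1*, which encodes the double-stranded RNA sensor MDA5, with 41.1, 43.2 and 39.2 CPM in the WT livers and 30.5, 32.0 and 37.9 CPM in the KO livers (−0.30, SE 0.10, adjusted p = 0.10). Every KO liver lay below every WT liver. *Ddx58* (RIG-I), *Dhx58* (LGP2) and *Eif2ak2* (PKR) had log2 fold changes of −0.14, −0.08 and −0.12, although 4 of the 5 sensors were positive under total-count scaling, and *Zbp1*, a Z-nucleic acid sensor, had 0.22.

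In the IFIT and ISG15 system all 5 log2 fold changes were positive and 1 gene was called. *Ifit2* (chr19:34550694-34576419, forward strand), whose protein binds viral RNA and restricts its translation, had 5.73, 6.14 and 7.30 CPM in the WT livers and 11.0, 10.3 and 11.9 CPM in the KO livers. It was 1.73-fold higher (log2 0.79, SE 0.14, adjusted p = 0.0246), with a gap between the groups wider than the spread within either. *Ifit3* had 17.2, 19.7 and 16.2 CPM against 20.8, 22.8 and 19.5 CPM (0.25, SE 0.11, adjusted p = 0.169). It shares 31.7% of its 100-base words with *Ifit3b*, so the counts of this pair are uncertain, and their sum had 20.4, 23.5 and 19.5 against 25.3, 28.2 and 24.98 CPM (log2 ratio of means 0.31, exact two-sided permutation p = 0.1, the smallest possible with 3 livers against 3). *Isg15*, a ubiquitin-like modifier, and *Usp18*, which removes it from proteins, had log2 fold changes of 0.35 (adjusted p = 0.103) and 0.25, and *Ifit1* had 0.09.

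The OAS family held 4 of the 8 rises. These genes encode oligoadenylate synthetases and relatives, of which the active ones make 2′-5′ oligoadenylates that switch on RNase L. *Oas2* (chr5:120730333-120749853, reverse strand) had 6.47, 6.09 and 6.95 CPM in the WT livers and 10.8, 14.8 and 12.8 CPM in the KO livers (1.97-fold, log2 0.98, SE 0.15, adjusted p = 0.0177). *Oas3* (chr5:120753098-120777661, reverse strand), the neighbouring gene, had 1.74, 1.20 and 2.41 CPM against 4.21, 5.12 and 3.12 CPM (2.31-fold, log2 1.21, SE 0.29, adjusted p = 0.0452). *Oas3* had the largest fold change of the 44 genes and also the lowest level per length, and its groups were separated by a smaller gap than those of *Oas2*.

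*Oas1a* (chr5:120896256-120907521, reverse strand) had 5.60, 5.37 and 6.23 CPM in the WT livers and 10.3, 9.85 and 8.69 CPM in the KO livers (1.68-fold, log2 0.74, SE 0.13, adjusted p = 0.0255). It shares 40.9% of its 100-base words with its paralog *Oas1g*, so reads could be split between them. The sum of both genes had 8.07, 8.01 and 9.04 CPM against 14.7, 14.7 and 13.3 CPM (exact two-sided permutation p = 0.1, the smallest possible), and the summed values did not overlap between the groups either. *Oasl2* (chr5:114896936-114912234, forward strand), an OAS-like gene, had 10.9, 10.3 and 11.8 CPM against 20.1, 20.3 and 16.8 CPM (1.73-fold, log2 0.79, SE 0.12, adjusted p = 0.0161), the lowest adjusted p among the 44 genes. Its relative *Oasl1*, which restrains *Irf7* translation, had 13.8, 15.9 and 12.5 CPM against 10.9, 12.7 and 13.5 CPM (−0.18, adjusted p = 0.376), and its groups overlapped. Of these family members, *Oas2*, *Oas3*, *Oasl1* and *Oasl2* share none of their 100-base words with another gene. Among relatives outside the 44 genes, *Oas1g* was called higher by edgeR (log2 0.81, adjusted p = 0.0302). *Oas1b*, annotated as a polymorphic pseudogene, and *Oas1c* had log2 fold changes of 0.15 and 0.10 and were not called.

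**Figure D3:**
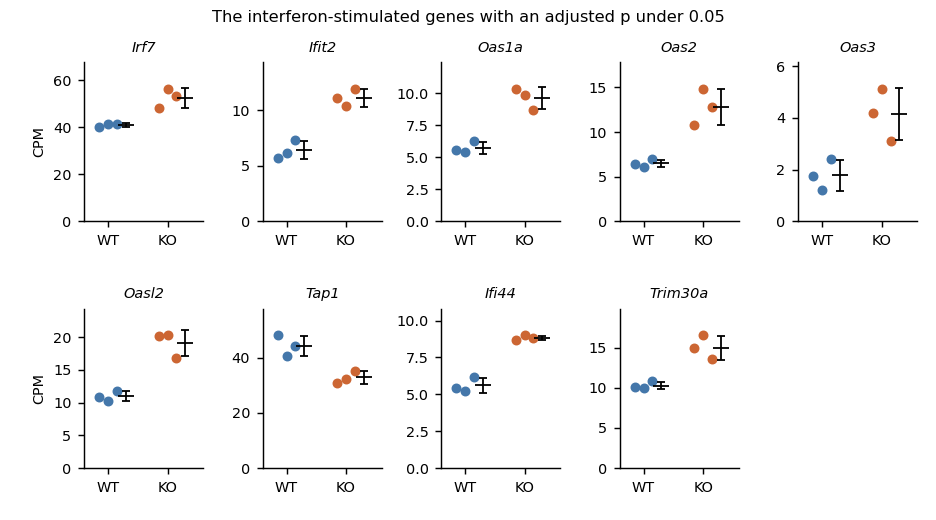
CPM of the 9 interferon-stimulated genes with an adjusted p under 0.05 in each liver (points) with the mean and SD of 3 livers (bars), on linear axes that start at 0. In each panel the 3 KO livers lie beyond the 3 WT livers, above them in 8 panels and below them for *Tap1*.

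Of the 8 virus restriction genes none was called by either tool, and 3 had an unadjusted p under 0.05. *Ifitm1*, a membrane protein gene that limits virus entry, had 6.15, 5.47 and 5.76 CPM in the WT livers and 7.10, 8.39 and 8.50 CPM in the KO livers (0.46, SE 0.14, adjusted p = 0.0697), without overlap. *Bst2*, which encodes the tethering protein tetherin, had 187, 168 and 186 CPM against 165, 177 and 181 CPM (−0.05, adjusted p = 0.725; 0.088 under total-count scaling), with overlapping groups. The GTPase genes *Mx1* and *Mx2*, the latter annotated as a polymorphic pseudogene, had log2 fold changes of 0.71 and −0.27 at low counts. *Rsad2* (viperin) and its neighbour *Cmpk2* had 0.38 and 0.30, and *Ifitm2* and *Ifitm3* had 0.16 and −0.03.

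Interferon-inducible GTPases, which act against intracellular pathogens and are strongly driven by IFN-γ, were not called in either direction by edgeR or DESeq2, and 3 of 7 had an unadjusted p under 0.05. *Gbp2*, a guanylate-binding protein gene, had 6.24, 7.25 and 8.29 CPM in the WT livers and 11.8, 10.3 and 9.12 CPM in the KO livers (0.52, SE 0.16, adjusted p = 0.0757). *Iigp1*, the most abundant member of this group, had 355, 250 and 301 CPM against 265, 274 and 190 CPM (−0.31, SE 0.17, adjusted p = 0.256). *Gbp2* did not overlap between the groups, whereas *Iigp1* did. The other 5 had log2 fold changes from −0.35 for *Gbp7* to 0.08 for *Gbp3*, and the group had 2 positive and 5 negative values.

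All 3 antigen processing genes had negative log2 fold changes (2 of 3 under total-count scaling), and 1 was called. *Tap1* (chr17:34187553-34197225, forward strand), a subunit of the transporter that carries peptides to class I molecules, had 48.1, 40.7 and 44.2 CPM in the WT livers and 30.9, 32.5 and 35.3 CPM in the KO livers (log2 −0.43, SE 0.096, adjusted p = 0.0386). Every KO liver lay below every WT liver. *Psmb9*, an immunoproteasome subunit gene that is read in the opposite direction from the same stretch of DNA, had 29.5, 26.5 and 23.6 CPM against 17.1, 15.3 and 24.8 CPM (−0.48, SE 0.18, adjusted p = 0.130), with KO 3 above WT 3. *Psmb8*, another immunoproteasome gene, had −0.09. Under total-count scaling *Tap1* was at −0.29 (adjusted p = 0.0755).

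The stretch between the RefSeq start sites of *Psmb9* and *Tap1* (chr17:34187331-34187555, 225 bases, forward strand) is shown because it serves the only lower gene and its neighbour. The gene coordinates given here come from GENCODE, in which *Psmb9* reaches 34187764 and so spans this stretch. Capitals mark its 2 single GAAA half-sites on either strand, which 89.2% of all promoters hold at least once.
*Psmb9* to *Tap1*: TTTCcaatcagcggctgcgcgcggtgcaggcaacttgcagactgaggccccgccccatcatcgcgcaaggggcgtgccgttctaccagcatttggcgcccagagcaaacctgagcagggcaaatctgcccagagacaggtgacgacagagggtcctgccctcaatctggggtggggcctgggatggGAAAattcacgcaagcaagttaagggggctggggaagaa

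The remaining 7 genes held 2 rises. *Ifi44* (chr3:151730922-151749960, reverse strand), an antiviral gene of little-known mechanism, had 5.41, 5.23 and 6.16 CPM in the WT livers and 8.71, 8.99 and 8.83 CPM in the KO livers (1.58-fold, log2 0.66, SE 0.13, adjusted p = 0.0302). *Trim30a* (chr7:104409025-104465193, reverse strand), a tripartite motif gene that dampens Toll-like receptor signalling, had 10.0, 9.93 and 10.8 CPM against 14.9, 16.5 and 13.6 CPM (1.46-fold, log2 0.55, SE 0.12, adjusted p = 0.0349). Neither gene overlapped between the groups, and *Ifi44* was the tighter of the 2 in the KO livers. *Trim30a* shares 4.41% of its 100-base words with *Trim30d*, which had a log2 fold change of 0.02. *Ifi27* had 62.3, 57.9 and 63.3 CPM against 72.9, 62.9 and 66.7 CPM (0.14, adjusted p = 0.304), and *Ifi35*, *Xaf1*, *Rtp4* and *Parp14* lay between −0.05 and 0.13.

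**Figure D4:**
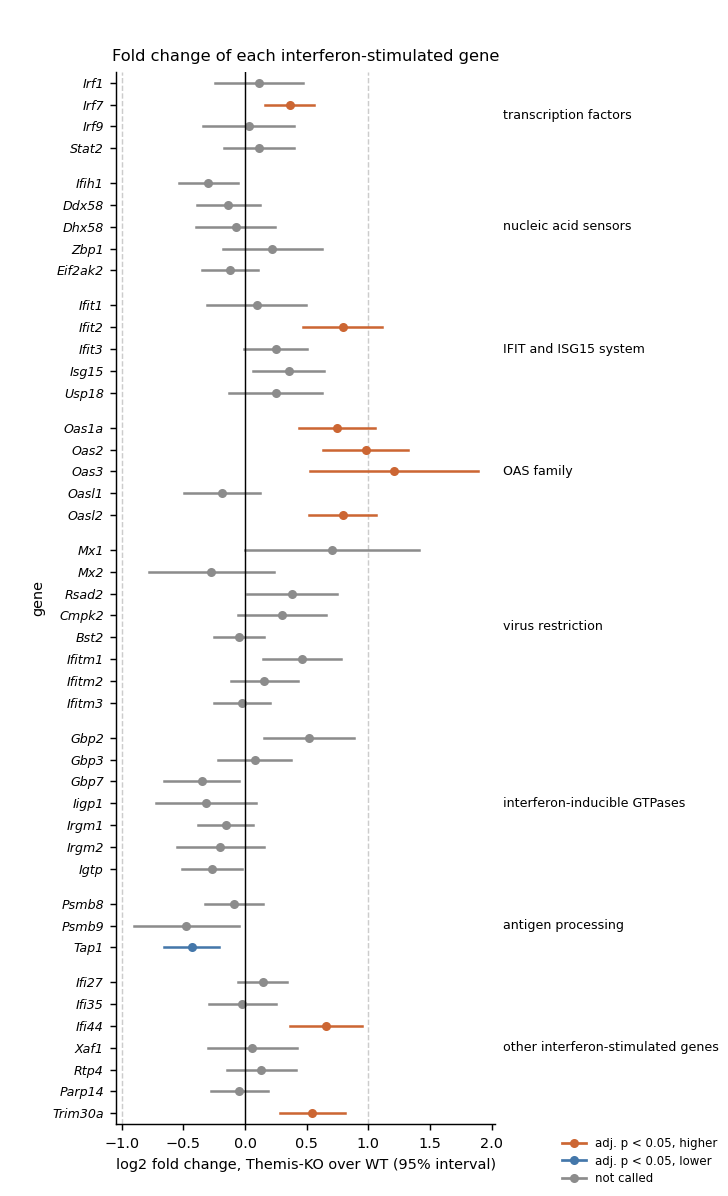
Log2 fold change of each interferon-stimulated gene of KO over WT livers (points) with its 95% interval (lines), by role, with dashed lines at −1 and 1. The 4 orange OAS genes lie between 0.74 and 1.21, 5 of the 7 GTPases lie left of 0, as do 4 of the 5 sensors (1 of 5 under total-count scaling), and *Tap1* is the blue point.

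By role, the median log2 fold change was 0.79 in the OAS family, 0.25 in the IFIT and ISG15 system, 0.23 in virus restriction, 0.13 in the other genes, 0.11 in the transcription factors, −0.12 in the sensors, −0.20 in the GTPases and −0.43 in antigen processing. These medians describe 3 to 8 genes each, and their differences were not tested. Scaling libraries to their total counts, without TMM, moved the median of all genes from 0.0095 to 0.15. On that scale 4 of the 5 sensors, 7 of the 8 virus restriction genes, all 7 other genes and 1 of the 3 antigen processing genes were positive. It also gave 11 genes higher (25%) and 0 lower, against 9.996% of all genes higher and 2.67% lower, and 78.9% of all calls were higher against 54.6% before. Taken against the median of all genes, each role had the same number of genes above and below under all 4 scalings.

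The most abundant of the 44 genes per length were not among those called. In CPM per kilobase of exon, averaged over the 6 livers, *Ifitm3* had 205, *Bst2* 196, *Ifitm2* 127, *Iigp1* 46.8 and *Ifi27* 43.9. Of the called genes *Irf7* ranked 9 with 12.4 and *Tap1* ranked 15 with 7.05, and the other 7 ranked from 27, with 4.07 for *Oas1a*, to 44, with 0.42 for *Oas3*. *Ifitm2* shares 34.9% of its 100-base words with other genes, so its level is uncertain.

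The rest of the interferon pathway was read from 56 further genes, of which 47 were listed and 45 tested. Of the 45, 5 were called (11.1%), all higher, beside 4.97% of all genes called higher by edgeR and 9.11% in either direction. DESeq2 called 7, all higher, with *Sting1* and *Irf5* besides the 5. It called 8.02% of all genes higher and 15.1% in either direction. An unadjusted p under 0.05 by edgeR was reached by 19 of the 45, and the share of all genes with such a p is not given here. Besides the 5 called, *Ifngr2*, *Tlr7*, *Cgas*, *Sting1*, *Irf5*, *Irf8*, *Ptpn2*, *Ptpn6* and *Cxcl10* had positive log2 fold changes. *Tlr3*, *Mavs*, *Irf3*, *Cxcl11* and *Erap1* had negative ones. With WT 1, WT 2, KO 1 or KO 2 left out edgeR called 0 of these pathway genes. Of them 8, 11, 11 and 9 then had an unadjusted p under 0.05. Without KO 3 it called 12 (26.7%), close to the 28.8% of all genes called in that fit. Of these 12, 11 were higher and 1 lower, while 15.05% of all genes were higher and 13.8% lower. Interferon ligands were near the limit of counting. *Ifng* had 1, 0 and 0 counts in the WT livers and 1, 0 and 1 in the KO livers, and *Ifnk* had 0, 0 and 0 against 3, 2 and 3 counts. Neither was tested, and the other 9 ligands, *Ifnb1* among them, were not analysed here.

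Receptor chains held 3 of the 5 rises. *Ifnlr1*, the chain specific to type III interferon, had 8, 9 and 4 counts in the WT livers and 39, 38 and 20 counts in the KO livers, or 0.37, 0.43 and 0.16 CPM against 1.66, 1.63 and 0.94 CPM (log2 2.16, SE 0.42, adjusted p = 0.0302). *Il10rb*, its partner and also a chain of the IL-10 receptor, had 11.7, 11.3 and 15.3 CPM against 22.2, 20.7 and 19.5 CPM (0.70, SE 0.14, adjusted p = 0.0305). *Ifngr1*, the binding chain for IFN-γ, had 21.3, 21.4 and 28.7 CPM against 45.7, 45.8 and 30.2 CPM (0.77, SE 0.19, adjusted p = 0.0466). None of the 3 overlapped, but KO 3 was the lowest KO liver for each, and for *Ifngr1* it stood close to WT 3.

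The type I receptor chains *Ifnar1* and *Ifnar2* had log2 fold changes of −0.11 (95% interval −0.32 to 0.10) and −0.01 (−0.21 to 0.19). The kinases *Jak1*, *Jak2* and *Tyk2* had 0.14, 0.18 and −0.0025 and did not pass the test either.

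**Figure D5:**
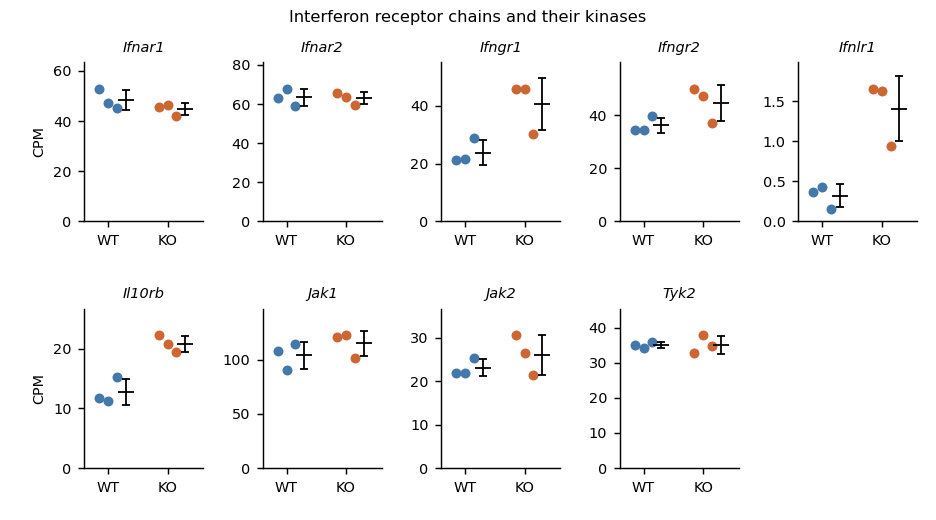
CPM of the interferon receptor chains and their kinases in each liver (points) with the mean and SD of 3 livers (bars), on linear axes that start at 0. The KO livers lie above the WT livers for *Ifngr1*, *Ifnlr1* and *Il10rb*, and both groups overlap for *Ifnar1* and *Ifnar2*.

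Upstream, 1 of 14 genes that induce interferons was called, and 9 of the 14 had an unadjusted p under 0.05. Of their log2 fold changes 11 were positive and 3 negative. *Tlr9*, an endosomal DNA receptor, had 0.46, 0.72 and 0.91 CPM in the WT livers and 2.34, 1.63 and 2.17 CPM in the KO livers (1.54, SE 0.31, adjusted p = 0.0313). Of the 8 inhibitors of interferon signalling, *Irf2bp2*, a corepressor that works with IRF2, had 42.3, 39.0 and 48.6 CPM against 75.6, 74.3 and 56.1 CPM (0.66, SE 0.14, adjusted p = 0.0344). In both, all KO livers lay above all WT livers. Outside antigen processing as listed above, edgeR and DESeq2 called none of 10 further class I presentation genes, of which 1 had an unadjusted p under 0.05. They also called none of the 3 interferon-inducible chemokines *Cxcl9*, *Cxcl10* and *Cxcl11*, of which 2 had an unadjusted p under 0.05. *Cxcl11* is annotated as a polymorphic pseudogene.

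Summed markers of 5 cell types did not overlap between the labels, and for 4 of them this held with any 1 marker left out of the sum. Such separation was common among single genes: of all genes tested, 17.7% lay wholly above and 16.9% wholly below in the KO livers. Conventional dendritic cell markers summed to 17.4 to 19.7 CPM in the WT livers and 25.7 to 27.9 CPM in the KO livers (1 of 6 genes called higher, *Itgax*). Of these 6, 5 had a positive log2 fold change, with *Xcr1* at only 0.07, and 1 a negative one. It was *Zbtb46*, with 9.17, 9.12 and 8.80 CPM in the WT livers and 8.12, 8.17 and 8.64 CPM in the KO livers, all below. Hepatic stellate cell markers had 317 to 362 against 437 to 450 CPM (2 of 6 higher). Cholangiocyte markers had 153 to 192 against 386 to 613 CPM (1 of 6 higher, *Spp1*). Most of this sum was *Spp1*, and without it the sums were 11.9 to 15.9 against 18.8 to 42.5 CPM. Among the rest, *Krt19*, *Sox9* and *Cftr* overlapped between the groups. Endothelial markers had 184 to 202 against 206 to 227 CPM (1 of 6 higher, *Lyve1*, with *Kdr* and *Clec4g* at log2 fold changes of −0.13 and −0.17). Without *Lyve1* they had 169 to 184 against 178 to 201 CPM, with overlap, as also without *Cdh5*. Hepatocyte markers had 60425 to 63675 against 45809 to 51210 CPM (2 of 8 lower, with *Hnf4a* at a log2 fold change of 0.05). Macrophage markers overlapped at 398 to 688 and 654 to 827 CPM (1 of 10 higher, *Cd68*), but not without *Marco*, at 389 to 635 and 647 to 811 CPM. Of these 10 markers 8 had a positive log2 fold change, with a median of 0.57, and 5 had an unadjusted p under 0.05. Markers of plasmacytoid dendritic cells, a main source of type I interferon, had 2.21 to 2.66 and 2.06 to 2.98 CPM, with 0 of 6 called and 4 too low to test. T and NK cell markers had 4.51 to 6.27 and 3.70 to 7.73 CPM (1 of 10 lower, *Cd4*), B cell markers had 2.34 to 5.57 and 1.59 to 4.91 CPM, and neutrophil markers had 5.37 to 9.08 and 6.90 to 21.1 CPM. No listed marker was at 0 in all 6 livers, and the part of these cells in the interferon-stimulated gene values was not tested.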

How the data were processed

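Per the submitters' processing notes and the Methods, the authors trimmed paired-end reads of 151 bp with cutadapt 2.3, mapped them to GRCm38 with STAR 2.7.8a and deposited estimated counts per gene from RSEM 1.3.3. The deposited estimated counts are whole numbers, although RSEM gives fractions, and they are not normalized. RSEM divides reads that fit several genes. The annotation release is not given in the sources used here. GENCODE vM21, on GRCm38, supplied coordinates, exon lengths and the 100-base words compared between genes. RefSeq promoters came from GRCm38.p6.

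Genotype and replicate number were taken from the labels. The filterByExpr function removed 10907 of the 25403 genes for low counts. Libraries were scaled by TMM, and the 3 livers labelled WT were compared with the 3 labelled *Themis*-KO by edgeR 4.0.16 (glmQLFit and glmQLFTest, R 4.3.3, limma 3.58.1) on all genes without covariates, with Benjamini-Hochberg adjustment over the genes tested and a threshold of 0.05. The SE of a log2 fold change was obtained from its F statistic. CPM were computed here from the deposited counts. The p-values measure the spread between 3 livers a group, which the labels give as separate livers without naming the animals. No pair of libraries of the same group agreed within sampling noise.

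Values were given for every called gene, for the gene with the lowest p and the one with the highest CPM in each of 8 roles, for called pathway genes, and for *Ifng* and *Themis*; the other values in the text were added after they were seen. Of the genes the rule names, *Ifnb1* was not analysed here and another is not reported here. The members and lists were chosen with earlier results of these data known. The fits were checked on simulated counts. The alternatives were RLE size factors, upper quartile scaling, total counts alone, no filter, a minimum of 10 counts in every liver, DESeq2 1.42.0, a replicate block, the mitochondrial type as a covariate, each liver left out and a threshold of 0.10; leaving each marker out of its summed list was added after the data were seen. Exact tests used scipy 1.17.1 in Python 3.11.15, and figures used matplotlib 3.10.9.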

Additional observations from a re-analysis of the deposited data

How the results depend on the processing

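RLE size factors, upper quartile scaling, at least 10 counts in every liver and DESeq2 each called 8 of the 44 genes higher and 1 lower, and no filter on low counts called 7 and 1, without *Irf7*. Of all genes these settings called, in that order, 4.77%, 4.89%, 5.60%, 8.02% and 4.77% higher. They called 4.35%, 3.55%, 4.46%, 7.12% and 3.81% lower. Scaling by total counts alone gave 11 higher and 0 lower, with 9.996% of all genes higher and 2.67% lower, and a median log2 fold change of 0.25 in place of 0.10. It called 9 pathway genes (20.0%) in place of 5, with 12.7% of all genes called in either direction. It turned *Bst2* to 0.088. With the mitochondrial type as a covariate 0 were higher, 0 lower and 0 pathway genes called, with 9 of the 44 and 4 pathway genes at an unadjusted p under 0.05, the median was 0.16, and 0 genes higher and 3 lower were called in the whole table. A threshold of 0.10 called 10 higher, 1 lower and 9 pathway genes (20.0%), with 20.6% of all genes called in either direction. Leaving out 1 liver gave 0 to 11 higher, 0 to 4 lower, 0 to 12 pathway genes and medians of 0.054 to 0.15. In each of these fits all 9 called genes kept their sign, which the lack of overlap between their groups had largely fixed beforehand. The 8 higher genes had an unadjusted p under 0.05 in every fit with a liver left out. They had been picked by low p in the same livers, so this is no independent check. Same-numbered livers had a mean correlation of −0.13 in their deviations from the group means and differently numbered livers 0.066. Deviations within a group sum to 0, so these values depend on each other and cannot settle whether the replicate numbers mark pairs. The paper speaks of 3 pairs of livers and does not say what paired them. With the replicate number as a block 0 were higher, 0 lower and 0 pathway genes were called, while 13 of the 44 and 12 pathway genes had an unadjusted p under 0.05 and 17 genes higher and 45 lower were called in the whole table. Low counts limit the precision for genes such as *Oas3*, *Mx1*, *Ifnlr1* and *Tlr9*, and the ligands could not be compared. The cause of these shifts was not tested.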
